A study of Homo sapiens with 8 samples.

Results

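The genes of 7 transcription factors linked to the epithelial-to-mesenchymal transition (EMT) were SNAI1, SNAI2, SNAI3, ZEB1, ZEB2, TWIST1 and TWIST2. They were followed in RNA-seq of 2 renal cell carcinoma (RCC) cell lines cultured with or without branched-chain amino acids (BCAA). The members were taken by symbol from the 27776 genes listed in either deposited table. In each line 6 of the 7 could be measured: TWIST1 was not analysed here in 769-P and TWIST2 was not analysed here in CAKI-1. 769-P and CAKI-1 are established human RCC lines of the clear cell type. Cells of each line were kept for 16 hours in amino acid-defined medium with dialysed serum. It either lacked BCAA or held leucine and isoleucine, both at 0.38 mM, together with 0.17 mM of valine. This gave 4 groups of 2 libraries, 769-P with BCAA, 769-P without BCAA, CAKI-1 with BCAA and CAKI-1 without BCAA, 8 libraries in all. No group carried a transgene or gene deletion in its labels. The labels do not state whether the 2 libraries of a group came from separate cultures, so the p-values measure only the spread between these samples.

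EMT is the programme by which epithelial cells lose cell-cell junctions and gain motility, and in carcinoma it accompanies invasion. SNAI1 (protein SNAIL), SNAI2 (SLUG) and SNAI3 are zinc finger repressors that bind E-box sequences such as CAGGTG. ZEB1 and ZEB2 carry a zinc finger cluster at each end of the protein and bind similar sequences. TWIST1 and TWIST2 are basic helix-loop-helix proteins that bind E-boxes of the form CANNTG as dimers with E proteins. All repress E-cadherin and other epithelial genes in many cell types, yet they are controlled separately, and the microRNAs of the miR-200 family repress ZEB1 and ZEB2.

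The genes lie on different chromosomes except for ZEB2 and TWIST2, which are far apart on the same one. In GRCh38 with GENCODE 29, SNAI1 is at chr20:49982999-49988886 on the plus strand, SNAI3 at chr16:88677682-88686493 on the minus strand, ZEB1 at chr10:31318495-31529814 on the plus strand and ZEB2 at chr2:144364364-144524583 on the minus strand. TWIST1 is at chr7:19020991-19117672 on the minus strand and TWIST2 at chr2:238848032-238910543 on the plus strand. Exons of SNAI3, ZEB1, ZEB2 and TWIST1 overlap genes of the opposite strand by 163, 366, 1322 and 141 bases, and whether counting used strand is not given in the sources used here. SNAI1, SNAI2 and TWIST2 share no exonic base with another gene.

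The first coding bases of SNAI1 and SNAI3 are shown because they encode the start of the SNAG domain, the amino-terminal stretch through which SNAI proteins recruit corepressors. They were read from the GENCODE transcripts, at chr20:49983060-49983086 (plus strand) and chr16:88686380-88686406 (minus strand). Capitals mark the 6 of 27 bases that differ between the paralogs, and 21 are identical.
SNAI1: atgccgcgctcTttcctCgtCaGGaAg
SNAI3: atgccgcgctcCttcctGgtGaAAaCg

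The mature miR-200 family microRNAs are shown because their seed matches set ZEB1 and ZEB2 apart from the other members in sequence. They are RefSeq sequences (GRCh38.p14) with the seed, bases 2 to 8, in capitals. Those of miR-200b, miR-200c and miR-429 share 1 seed, and miR-200a and miR-141 share another. The microRNAs themselves were not measured in these libraries.
hsa-miR-200b-3p: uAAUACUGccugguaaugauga
hsa-miR-200c-3p: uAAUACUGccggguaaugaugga
hsa-miR-429: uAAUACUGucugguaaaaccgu
hsa-miR-200a-3p: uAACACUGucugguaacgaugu
hsa-miR-141-3p: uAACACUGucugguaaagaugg

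The match to the first seed, CAGTATT, was found 6 times in the 3′ UTR of ZEB1 (2549 bases) and 5 times in that of ZEB2 (5370 bases). SNAI2 held 1 match and the 4 other members held 0, while 15.6% of 19550 genes held at least 1. In the 1 transcript chosen per gene, ZEB1 was among 3 genes with at least 6 matches and ZEB2 among 7 with at least 5. The match to the second seed, CAGTGTT, was found 3 times in ZEB1, 4 times in ZEB2 and 0 times in the others, against 17.6% of genes with at least 1. The first matches of each gene are printed with their flanks and the match in capitals, at chr10:31527622-31527650 and chr10:31527716-31527744 (plus strand) for ZEB1 and at chr2:144389042-144389070 and chr2:144388979-144389007 (minus strand) for ZEB2. A match is a description of letters, not a site shown to be bound.
ZEB1 match 1: ttttatcttatCAGTATTatcactcttat
ZEB1 match 2: taaatccgcttCAGTATTttattatgttt
ZEB2 match 1: ctaccatacatCAGTATTtttattattat
ZEB2 match 2: ctacaatgcatCAGTATTatgattcctct

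Promoter windows (250 bases before to 50 after a start, RefSeq, GRCh38.p14) were matched for ZEB1 (7 windows), ZEB2 (1) and TWIST2 (1), and not for SNAI1, SNAI2, SNAI3 and TWIST1. They were searched on both strands for CAGGTG, the E-box that SNAI and ZEB proteins bind, for any E-box, CANNTG, which includes the former, and for TGGGAA, the core letters of the RBPJ site through which NOTCH acts. The ZEB2 window, chr2:144520070-144520369 on the minus strand, held 0 CAGGTG, 1 CANNTG and 1 TGGGAA. It is shown with CANNTG in capitals because ZEB2 was the ZEB gene that passed the test of the BCAA effect. The ZEB1 window at chr10:31318966-31319265 on the plus strand held 3 CAGGTG, the most of the 9 windows, and is shown with CAGGTG or its reverse complement in capitals. The ZEB1 window at chr10:31318167-31318466 held 1 CAGGTG, and the other ZEB1 windows held 0. The TWIST2 window held none of these motifs. Over 35116 windows, 20.6% held CAGGTG, 68.7% CANNTG and 24% TGGGAA.
ZEB2 promoter window: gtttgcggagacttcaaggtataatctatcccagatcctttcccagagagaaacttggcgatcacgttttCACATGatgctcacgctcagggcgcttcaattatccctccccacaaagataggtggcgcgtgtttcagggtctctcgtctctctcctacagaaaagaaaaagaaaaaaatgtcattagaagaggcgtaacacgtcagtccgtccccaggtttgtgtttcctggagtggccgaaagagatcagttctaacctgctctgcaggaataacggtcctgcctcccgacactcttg
ZEB1 promoter window: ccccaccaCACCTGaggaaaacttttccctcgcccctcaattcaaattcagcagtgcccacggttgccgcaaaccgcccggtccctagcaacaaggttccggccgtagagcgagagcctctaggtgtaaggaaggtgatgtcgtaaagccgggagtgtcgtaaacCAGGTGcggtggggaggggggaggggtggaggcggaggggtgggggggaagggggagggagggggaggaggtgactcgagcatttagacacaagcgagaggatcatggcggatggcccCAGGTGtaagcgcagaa

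The deposited values are a signal per gene, reads counted and divided by 1 size factor per library, called normalized reads below. Reads on listed genes numbered between 30979773 and 64256834 per library, and depth went with condition in 769-P, where both libraries with BCAA were deeper (55829324 and 64256834) than those without (39062721 and 40130258). The renal epithelial markers PAX8 and KRT8 were present in both lines, with between 8345 and 20096 and between 3849 and 30633 reads in every library. PAX2, another renal tubule marker, had between 751 and 1537 reads in 769-P and was not analysed here in CAKI-1. KRT18 and VIM were also found in every library, with at least 758 reads. Markers of leukocytes, endothelium and liver (PTPRC, PECAM1, VWF, ALB) held at most 12 reads wherever they were measured, and MLANA, of melanocytes, between 4 and 47. CA9, a marker of clear cell RCC, was not analysed here in either line, and NDUFA4L2, another, held at most 3 reads in 769-P and between 91 and 215 in CAKI-1. Bulk RNA cannot tell fewer cells of a type from less RNA per cell.

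SNAI1 rose with BCAA in both lines. In 769-P it had 224 and 147 reads with BCAA and 21 and 15 without, which are 169.8 and 126 normalized reads against 26.1 and 18.3. In CAKI-1 it had 441 and 433 reads with BCAA and 213 and 129 without, or 429 and 360.3 normalized reads against 202 and 166. The groups did not overlap in either line. The increase was 6.43-fold in 769-P (log2 fold change 2.68 ± 0.30, SE, n = 2 per group, limma with Benjamini-Hochberg adjustment, adjusted p = 1.7e-05) and 2.14-fold in CAKI-1 (1.10 ± 0.15, adjusted p = 0.00048, same limma test). It placed SNAI1 at rank 74 of 22391 genes by log2 fold change in 769-P and at rank 1097 of 21347 in CAKI-1.

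SNAI2, the paralog that encodes SLUG (minus strand of chromosome 8), moved the opposite way. In 769-P it had 34 and 27 reads with BCAA and 183 and 147 without, or 25.8 and 23.1 normalized reads against 227 and 179.8. In CAKI-1, where it was abundant, the libraries with BCAA held 2089.7 and 1881 normalized reads and those without held 2779 and 2695. Every library with BCAA lay below every library without in both lines. The log2 fold change was -3.00 ± 0.25 in 769-P (limma, adjusted p = 1.6e-06, n = 2 per group) and -0.46 ± 0.07 in CAKI-1 (limma, adjusted p = 0.00092), which is 1.38-fold lower in the latter. SNAI2 ranked 54 from the bottom of 22391 genes in 769-P.

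SNAI3, the least studied SNAI gene, was near the low end of detection. It had 30 and 8 reads with BCAA and 8 and 21 without in 769-P, and 9 and 13 with against 32 and 16 without in CAKI-1. The groups overlapped in 769-P (log2 fold change -0.32, 95% interval -1.74 to 1.10). In CAKI-1 they did not, but the log2 fold change of -1.28 (-2.32 to -0.24) did not pass the test over all genes (limma, adjusted p = 0.084, n = 2 per group). Part of its exons overlap SNAI3-AS1, which had log2 fold changes of -0.34 and -0.21 and was not called in either line.

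**Figure D1:**
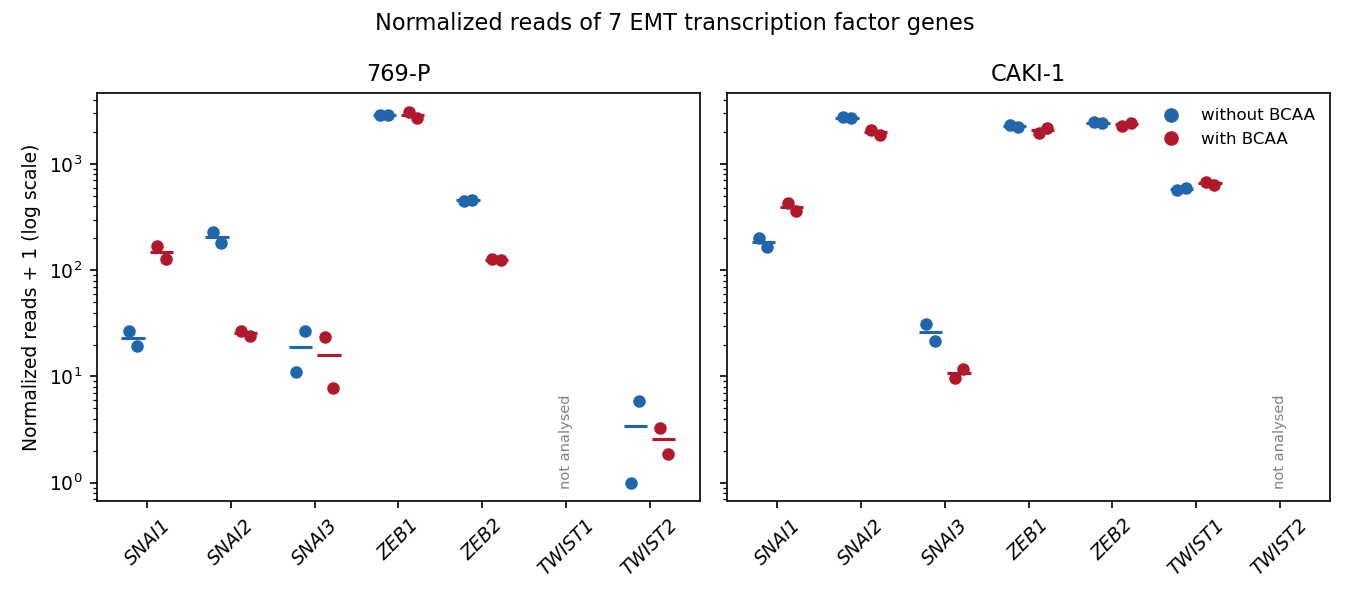
Normalized reads plus 1, on a log axis, of the 7 genes in each library of 769-P (left) and CAKI-1 (right). Points are the 2 libraries without BCAA (blue) and the 2 with BCAA (red), and bars are their means. In 769-P, SNAI1 rises from 26.1 and 18.3 to 169.8 and 126 normalized reads while SNAI2 and ZEB2 fall.

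ZEB2 fell with BCAA in 769-P. It had 166 and 144 reads with BCAA and 362 and 373 without, or 126 and 123 normalized reads against 449.6 and 456. The 2 libraries of each group lay close together and the groups were far apart, giving a log2 fold change of -1.85 ± 0.13 (limma, adjusted p = 4.0e-07, n = 2 per group), 3.62-fold lower. In CAKI-1, ZEB2 held 2287 and 2438 normalized reads with BCAA and 2478 and 2432 without. Those groups overlapped, and the log2 fold change was -0.06 (95% interval -0.20 to 0.09).

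ZEB1, the other ZEB repressor, was abundant in both lines and was not called in either. It held 3086 and 2736 normalized reads with BCAA and 2923 and 2891 without in 769-P, where the groups overlapped. In CAKI-1 it held 1953 and 2188 with BCAA and 2309 and 2251 without, where they did not. The intervals of its log2 fold change were narrow, -0.14 to 0.14 in 769-P and -0.30 to 0.02 in CAKI-1. Its antisense neighbour ZEB1-AS1 fell in both lines, by 0.81 ± 0.12 on the log2 scale in 769-P and 1.05 ± 0.16 in CAKI-1 (limma, adjusted p = 0.00014 and 0.00074). The call in 769-P was lost without either library lacking BCAA and without replicate 1 with BCAA (limma, adjusted p up to 0.059), and that in CAKI-1 without any 1 library. The transcripts share 366 exonic bases, and the part of this overlap in either value was not tested.

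TWIST1, the basic helix-loop-helix factor of mesoderm development, was expressed in CAKI-1 with 681 and 639 normalized reads with BCAA and 565 and 593 without. The groups did not overlap, and the log2 fold change of 0.19 (95% interval -0.02 to 0.40) did not pass the test (limma, adjusted p = 0.20, n = 2 per group). TWIST2 in 769-P had 3 and 1 reads with BCAA and 0 and 4 without. That is too few for a fold change, and no difference was detectable at this depth.

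Of the 6 members tested in each line, 1 rose and 2 fell with BCAA in 769-P, and 1 rose and 1 fell in CAKI-1. Among all genes tested, 20.3% were called higher and 18.2% lower in 769-P (22391 genes), and 10.8% higher and 9.05% lower in CAKI-1 (21347 genes), so calls were common in both tables and more so in 769-P. SNAI1 and SNAI2 were the members called in both lines, each in 1 direction. The share of all genes called in both lines in 1 direction was not computed, so this is a description only. With any 1 library left out, so that a lone library is assumed to vary like the pair, the log2 fold change of SNAI1 ranged from 2.44 to 2.93 in 769-P and from 0.95 to 1.24 in CAKI-1, and its call was lost in all 4 fits of each line (limma, adjusted p up to 0.077 and 0.23). The calls of SNAI2 and ZEB2 in 769-P remained in all 4 such fits, while that of SNAI2 in CAKI-1 was lost in all 4, where limma called no gene of the table (between 4084 and 5590 genes had an unadjusted p under 0.05). With reads thinned to 39062721 per library in 769-P, the log2 fold changes were 2.67 for SNAI1, -3.08 for SNAI2 and -1.84 for ZEB2, all still called.

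**Figure D2:**
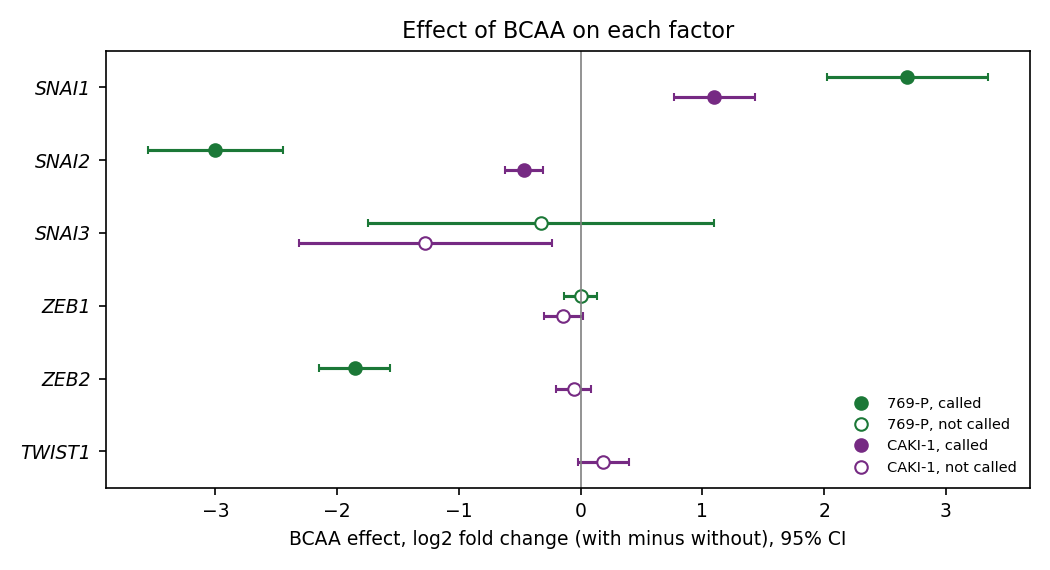
Log2 fold change with BCAA against without, with its 95% interval, for the members in 769-P (green) and CAKI-1 (purple). Filled points passed an adjusted p of 0.05 and open points did not, and TWIST2 is left out for its 0 to 4 reads per library. SNAI1 lies at 2.68 and 1.10, SNAI2 at -3.00 and -0.46, and ZEB2 departs from 0 in 769-P alone (-1.85).

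The BCAA effect differed between the lines for 3 of the 5 members measured in both. It was further up in 769-P by 1.59 ± 0.33 for SNAI1 on the log2 scale (interaction term of limma over 8 libraries, adjusted p = 0.0037), further down by 2.54 ± 0.18 for SNAI2 (log2 difference -2.54, adjusted p = 6.1e-07) and further down by 1.80 ± 0.11 for ZEB2 (-1.80, adjusted p = 2.2e-07). For ZEB1 the difference was 0.14 (95% interval -0.08 to 0.36) and for SNAI3 0.95 (-0.91 to 2.82), neither of them called. Over all 19406 genes tested in both tables, 10.9% were further up in 769-P and 10.1% further down.

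The next comparison asked how far the response of SNAI1 departed from those of SNAI2, ZEB1 and ZEB2 in the same libraries. Levels were compared as reads per kilobase of exon, scaled to the library's reads on listed genes (RPKM). SNAI1 exceeded SNAI2 in both 769-P libraries with BCAA (log2 ratio 3.73 and 3.45) and was below it in both without (-2.11 and -2.28). The SNAI1 to ZEB2 log2 ratio was 4.33 and 3.92 with BCAA and -0.21 and -0.74 without in 769-P. For ZEB1 it was -1.82 and -2.09 with BCAA against -4.45 and -4.94 without, so SNAI1 RNA stayed below ZEB1 RNA in all 4 libraries. In CAKI-1 the SNAI1 to SNAI2 ratio was -1.28 and -1.38 with BCAA and -2.77 and -3.01 without, and SNAI2 remained the more abundant throughout. The size and sign of a ratio depend on the length used, here the total exon length, which is 25058 bases for ZEB2. Its longest transcript has 9583 bases. On that length ZEB2 averaged 0.269 RPKM with BCAA and 0.968 without in 769-P, against 1.81 and 0.270 for SNAI1.

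The difference of the BCAA effect from that of SNAI1 was -5.68 for SNAI2 in 769-P (95% interval -6.55 to -4.82 on the log2 scale, from the combined standard errors of both genes), -4.54 for ZEB2 (-5.26 to -3.82) and -2.68 for ZEB1 (-3.36 to -2.01). In CAKI-1 it was -1.56 for SNAI2 (-1.93 to -1.19), -1.24 for ZEB1 (-1.61 to -0.87) and -1.15 for ZEB2 (-1.52 to -0.79). For SNAI3 it was -3.01 in 769-P and -2.37 in CAKI-1, and for TWIST1 -0.91 in CAKI-1. The median difference over all genes tested was -2.71 in 769-P and -1.11 in CAKI-1. ZEB1 in both lines and ZEB2 in CAKI-1 lay near that median, so their differences are mainly the rise of SNAI1 itself. The intervals above take the errors of both genes as independent, though both were measured in the same libraries. In the limma fit on values relative to SNAI1, all 5 other members were called below it in each line, as were 91.8% of all genes in 769-P (22390 tested) and 68.4% in CAKI-1 (21346 tested). A count of 5 of 5 beside that background is no result about the members. In 769-P the count also includes TWIST2, which had 0 to 4 reads per library. Since every gene in that fit carries the same 4 values of SNAI1, its p-values are too small and are not given.

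**Figure D3:**
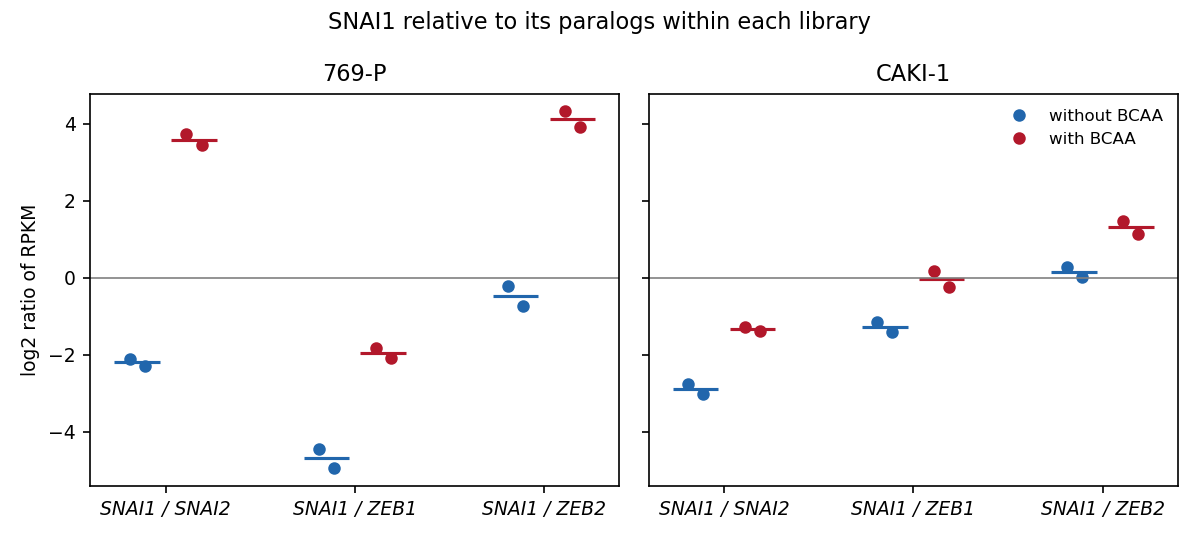
Log2 ratio of SNAI1 to SNAI2, ZEB1 and ZEB2 in RPKM within each library, without (blue) and with BCAA (red), in 769-P (left) and CAKI-1 (right). Points are libraries and bars their means. The SNAI1 to SNAI2 ratio crosses 0 in 769-P (from -2.11 and -2.28 to 3.73 and 3.45) and stays below it in CAKI-1. Ratios use total exon length. Per longest transcript, ZEB2 (6.45 RPKM) lay above SNAI1 (2.75) in CAKI-1 without BCAA.

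The composition of the SNAI family RNA shifted accordingly. On the RPKM scale SNAI1 made up 85.2% ± 3.2 (SD, n = 2) of the summed SNAI1, SNAI2 and SNAI3 level with BCAA in 769-P and 15.7% ± 2.6 without. The summed level itself was 2.14 ± 0.50 RPKM with BCAA and 1.71 ± 0.15 without, so the sums overlapped within their spread while the leading paralog changed from SNAI2 to SNAI1. In CAKI-1 SNAI1 made up 28.3% ± 1.0 with BCAA and 11.7% ± 1.2 without, of a sum of 21.0 ± 1.7 and 23.4 ± 1.1 RPKM. SNAI2 led the family in both CAKI-1 conditions.

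The order of the factors by level differed between the lines. In 769-P with BCAA, ZEB1 stood highest at 6.97 ± 0.49 RPKM (SD, n = 2 here and below), followed by SNAI1 at 1.81 ± 0.36. SNAI3 (0.176 ± 0.132), SNAI2 (0.149 ± 0.009) and ZEB2 (0.103 ± 0.0001) followed, and SNAI3 cannot be ordered against its neighbours within its spread. Without BCAA the order in 769-P was ZEB1 (6.89 ± 0.11), SNAI2 (1.23 ± 0.21), ZEB2 (0.370 ± 0.001), SNAI1 (0.270 ± 0.069) and SNAI3 (0.210 ± 0.130), the last pair overlapping. TWIST2 was the lowest member in both conditions, at 0.0172 and 0.0265 RPKM.

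In CAKI-1 with BCAA, SNAI2 stood highest at 14.9 ± 1.0 RPKM, then TWIST1 at 8.27 ± 0.34, ZEB1 at 6.10 ± 0.51, SNAI1 at 5.96 ± 0.71, ZEB2 at 2.40 ± 0.12 and SNAI3 at 0.144 ± 0.022. ZEB1 and SNAI1 overlapped on this scale. Without BCAA, SNAI2 (20.3 ± 0.6), TWIST1 (7.18 ± 0.20) and ZEB1 (6.64 ± 0.16) again led, followed by SNAI1 (2.75 ± 0.40), ZEB2 (2.47 ± 0.05) and SNAI3 (0.371 ± 0.103), and SNAI1 and ZEB2 overlapped. ZEB1 was thus near the same level in both lines, while SNAI2 and ZEB2 were far lower in 769-P. The tables were normalized separately, and these levels across lines were not tested. The order depended in part on the length used, the total exon length above or the longest transcript. Per longest transcript, ZEB2 was at 0.269 and 0.968 RPKM in 769-P with and without BCAA, and with BCAA it then lay above SNAI2 (0.179). In CAKI-1 with BCAA, ZEB1 lay above SNAI1 on that scale (7.91 and 8.92 against 6.46 and 5.46 RPKM), while ZEB2 (6.28 on average) overlapped SNAI1 (5.96). Without BCAA, ZEB2 (6.45) lay above SNAI1 (2.75) there, and ZEB1 (9.16) above TWIST1 (8.76).

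**Figure D4:**
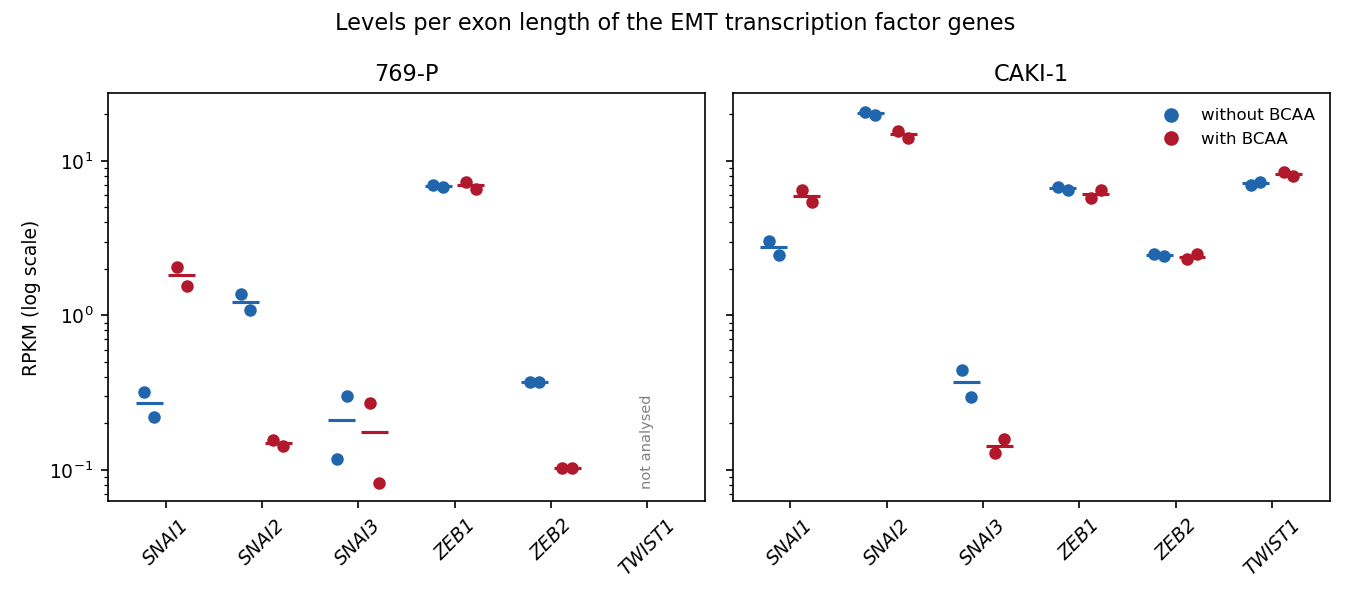
Level per exon length (RPKM, log axis) of each factor in every library of 769-P (left) and CAKI-1 (right), without (blue) and with BCAA (red), with bars at the means. TWIST2, at 0.0265 RPKM or below on average, is left out. ZEB1 sits between 6.10 and 6.97 RPKM on average in all 4 groups, whereas SNAI2 averages 0.149 RPKM in 769-P and 14.9 in CAKI-1 with BCAA.

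The dimer partners of TWIST proteins and their inhibitors were next. E proteins (TCF3, TCF4, TCF12) pair with TWIST on E-boxes, and ID proteins sequester E proteins. The counts of this list and of those below stand beside the shares over all genes tested. These were 20.3% called higher and 18.2% lower in 769-P, and 10.8% higher and 9.05% lower in CAKI-1. In 769-P, 6 of 7 tested genes of this list rose with BCAA and 0 fell (median log2 fold change 0.68, against -0.02 over all genes). ID3, ID2 and ID4 rose by 1.73 ± 0.05, 0.98 ± 0.07 and 0.92 ± 0.05 on the log2 scale. In CAKI-1, 1 of 7 rose and 0 fell (median 0.19, against -0.01), TCF3 by 0.20 ± 0.06, a call that edgeR on the recovered reads did not keep (adjusted p = 0.055). ID3 and ID2 differed in response between the lines, by 1.54 and 0.997 (interaction of limma, adjusted p = 1.0e-05 and 0.0018). The 769-P call of ID2 was lost without either library lacking BCAA, while those of ID3 and ID4 remained in all 4 fits with 1 library left out.

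Corepressor and cofactor subunits are the proteins that SNAI, ZEB and TWIST recruit to silence targets. In 769-P, 10 of 17 rose and 4 fell, and in CAKI-1 8 of 17 rose and 1 fell (medians 0.23 and 0.22). With any 1 library left out, between 2 and 4 were called higher in 769-P and 3 lower. SUV39H1, a histone H3 lysine methyltransferase, rose by 1.005 ± 0.10 in 769-P and 0.89 ± 0.11 in CAKI-1. EED, a subunit of the Polycomb repressive complex, rose by 0.76 ± 0.08 and 0.55 ± 0.09. EZH2, the methyltransferase of that complex, rose by 0.68 ± 0.07 in CAKI-1. In 769-P it was also higher with BCAA, with 3473 and 3419 normalized reads against 2689 and 2605 without. AJUBA, a LIM protein that binds SNAIL, fell in 769-P, with a log2 fold change of -1.31 ± 0.05. The 769-P calls of EED and AJUBA remained in all 4 fits with a library left out, and that of SUV39H1 was lost without replicate 1 of either condition.

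Kinases, ligases and proteases act on the stability of the factors. In 769-P, 5 of 21 rose and 10 fell (median -0.23), and in CAKI-1 5 of 21 rose and 1 fell (median -0.01). Between 1 and 2 were called higher in 769-P and between 0 and 4 lower with any 1 library left out. PAK1, a kinase that phosphorylates SNAIL, rose by 0.61 ± 0.06 in 769-P. CSNK1A1 and LATS2, further kinases, fell there with log2 fold changes of -0.48 ± 0.04 and -0.45 ± 0.07. The call of PAK1 was lost without either library with BCAA, that of CSNK1A1 without either library lacking it, and that of LATS2 in all 4 fits. In CAKI-1 the ubiquitin ligase subunits FBXO45 and FBXW7 rose by 0.60 ± 0.08 and 0.30 ± 0.09, and the deubiquitinase USP37 rose by 0.45 ± 0.10.

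TGF-beta signalling is the best known inducer of SNAI and ZEB genes. In 769-P, 5 of its 16 genes rose and 5 fell (median -0.07), and in CAKI-1 3 of 16 rose and 1 fell (median 0.04). In 769-P the counts fell to between 1 and 3 higher and between 0 and 1 lower with any 1 library left out. The ligand gene TGFB3 rose by 2.67 ± 0.33 in 769-P and 1.36 ± 0.32 in CAKI-1. The receptor genes TGFBR3 and TGFBR2 rose in 769-P, by 1.58 ± 0.17 and 0.81 ± 0.07. The 769-P call of TGFB3 was lost in all 4 fits with a library left out (limma, adjusted p up to 0.065), and those of TGFBR3 and TGFBR2 without either library with BCAA. In CAKI-1 TGFB2 rose by 0.30 ± 0.06, and HMGA2, a chromatin protein that acts upstream of SNAI1, fell with a log2 fold change of -0.70 ± 0.09. HMGA2 was not lower with BCAA in 769-P, with 20183.7 and 19730.3 normalized reads against 17782 and 18046.5 without.

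Among other EMT transcription factors, 2 of 9 rose and 3 fell in 769-P, and 1 of 12 rose and 1 fell in CAKI-1 (medians -0.10 and -0.08). ETS1 fell in 769-P, with a log2 fold change of -1.16 ± 0.06, and SOX4 rose there by 0.64 ± 0.06. FOXC2, a forkhead factor, rose by 0.34 ± 0.05 in 769-P and 0.46 ± 0.13 in CAKI-1. RUNX2, the osteoblast factor, fell in CAKI-1 (-0.28 ± 0.06). With any 1 library left out, between 0 and 1 of the list were called higher in 769-P and between 0 and 2 lower, the calls of ETS1 and SOX4 being lost without either library lacking BCAA and that of FOXC2 in all 4 fits.

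Epithelial genes that the factors are known to repress were called in both directions in 769-P, with 5 of 20 up and 5 down, and only downward in CAKI-1, with 0 of 19 up and 7 down (medians -0.04 and -0.16). Under the settings that keep every library, between 3 and 7 were down and between 0 and 2 up in CAKI-1. The junction gene CLDN1 fell in both lines, with log2 fold changes of -0.89 ± 0.04 in 769-P and -0.40 ± 0.11 in CAKI-1. PKP2, a desmosomal plakophilin, fell in 769-P (-1.23 ± 0.14), whereas PEBP1, the Raf kinase inhibitor, rose there by 0.64 ± 0.04. With any 1 library left out, 1 of the list was called higher in 769-P and 3 lower, with CLDN1 and PEBP1 kept in all 4 fits and PKP2 lost without either library with BCAA. In CAKI-1, CLDN4 (-0.59 ± 0.12), EPCAM (-0.53 ± 0.14) and the vitamin D receptor gene VDR (-0.44 ± 0.07) fell. The effect of VDR was further up in 769-P by 1.01 (interaction of limma, adjusted p = 8.4e-05). That exceeds its fall in CAKI-1, so its log2 fold change in 769-P was positive. CDH1, the E-cadherin gene and the classical SNAIL target, was named after its values were seen. In CAKI-1 it had only 17 and 19 reads with BCAA and 18 and 15 without, a log2 fold change of -0.16 (95% interval -1.13 to 0.81), and it was not analysed here in 769-P.

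Mesenchymal genes also went both ways, with 6 of 18 up and 7 down in 769-P and 5 of 20 up and 6 down in CAKI-1 (medians -0.10 and -0.11). S100A4, a calcium-binding protein of motile cells, rose by 2.18 ± 0.10 in 769-P and 1.19 ± 0.17 in CAKI-1. In CAKI-1 VIM, the vimentin gene, and FN1, the fibronectin gene, fell, with log2 fold changes of -0.65 ± 0.06 and -0.47 ± 0.09. The effect of FN1 was further up in 769-P by 0.89 (interaction of limma, adjusted p = 0.00014). That exceeds its fall in CAKI-1, so its log2 fold change in 769-P was positive. FN1 was the most abundant gene in CAKI-1. It had a log2 fold change of 0 there under quantile normalization, which gives the top gene of every library the same value. TNC, the tenascin gene, was called lower in 769-P (-3.38 ± 0.95) on 14 and 0 reads with BCAA against 19 and 41 without. That call was lost with DESeq2 on the recovered reads (adjusted p = 0.34) and with any 1 library left out, where between 1 and 3 mesenchymal genes were called higher in 769-P and between 3 and 6 lower. The 769-P call of S100A4 remained in all 4 of these fits. Of the antisense neighbours and microRNA host genes, 0 of 3 rose and 1 fell in 769-P and 0 of 2 rose and 1 fell in CAKI-1 (medians -0.34 and -0.63), the falling gene being ZEB1-AS1 in each. The cell type markers had 2 of 11 up and 2 down in 769-P and 0 of 8 up and 4 down in CAKI-1 (medians 0.08 and -0.46), the 769-P counts becoming 0 up and 1 down with any 1 library left out. Outside the fits that leave out a library, the CAKI-1 calls of TCF3, FBXW7, TGFB2, FOXC2, CLDN4, EPCAM and FN1 and the 769-P call of TNC were each lost under at least 1 alternative setting. With any 1 library left out, every CAKI-1 call of a listed gene was lost.

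**Figure D5:**
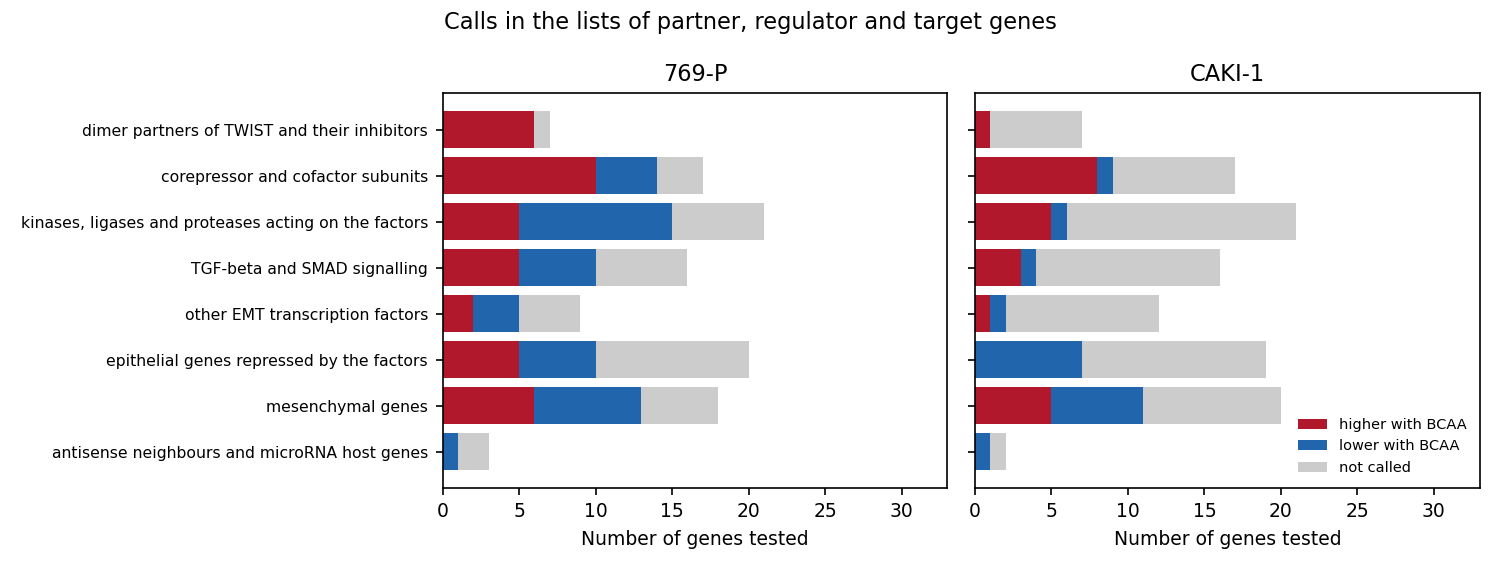
Number of genes called higher (red), lower (blue) or not called (grey) with BCAA among those tested in each list, in 769-P (left) and CAKI-1 (right). In 769-P, 6 of 7 dimer partners and inhibitors were higher, while in CAKI-1 7 of 19 epithelial genes were lower and 0 higher. Over all genes tested, 20.3% were higher and 18.2% lower in 769-P, and 10.8% higher and 9.05% lower in CAKI-1.

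Genes with the profile most like each factor were found by the root mean square difference, over the 8 libraries, of log2 values centred within each line, among 13151 genes. For SNAI1 they were TMEM37 (0.18 on the log2 scale), the ligand gene TGFB3 (0.19), the cyclin-dependent kinase inhibitor gene CDKN2C (0.21), the p38 kinase activator gene MAP2K6 (0.22) and the sterol transfer gene STARD4 (0.22). For SNAI2 they were NUPR1 (0.15), the mitochondrial phosphoenolpyruvate carboxykinase gene PCK2 (0.16) and SLFN5 (0.16). For ZEB2 they were SLC3A2, the heavy chain of amino acid transporters (0.04), PTPDC1 (0.05) and the serine synthesis gene PSAT1 (0.05). ZEB1 had its nearest profiles in AL158050.1, TBC1D25 and XAB2 (each 0.03). These are descriptions of likeness with no test, and the log2 fold changes of TMEM37 were 2.79 in 769-P and 1.295 in CAKI-1, of NUPR1 -3.09 and -0.38, and of SLC3A2 -1.97 and -0.04.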

How the data were processed

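The 8 RNA-seq libraries of 769-P and CAKI-1 (16 hours in either medium) were grouped by their labels. Per line, the authors deposited 1 table of signal, in which a gene's reads are scaled by the size factor of the library (0.777 to 1.32, equal to median-of-ratios factors). All values (100%) were whole reads within 0.01 reads, and listed genes had at least 2 reads over 4 libraries. The submitters' processing notes name Trim Galore, TopHat2 2.1.0, SAMtools 1.3.1, HTSeq 0.6.0, DESeq, DESeq2 and hg38. Symbols came from GENCODE 29 for 25032 of 25431 (769-P) and 23881 of 24190 (CAKI-1) identifiers.

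The planned edgeR test was for counts. Because the values were normalized, limma 3.58.1 in R 4.3.3 (lmFit, eBayes with trend) was fitted within each line to log2(value + 1), keeping genes whose mean value reached 1, with Benjamini-Hochberg adjustment at 0.05. Differences between lines were the interaction term over 8 libraries. Fold changes are on the log2(value + 1) scale and understate those of low genes. An exact permutation test of 2 against 2 libraries cannot go below p = 0.333.

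The members and the gene lists were chosen with earlier results of these data known. Named genes are all members, the 3 largest called changes per list and line with a mean of at least 20, and the genes with the most similar profiles. A list gene named in 1 line may have changed in the other as well. The log2 difference between the lines was -0.02 for CLDN4, 0.01 for RUNX2 and -0.04 for FBXW7. CDH1 was added after its values were seen, and values of 2 listed genes are not reported here. Alternatives were other pseudocounts, filters and scalings, a replicate block, count tests on recovered reads (edgeR 4.0.16, DESeq2 1.42.0), and left-out libraries. Thinned reads, combined standard errors and the same settings for list genes were added after seeing the data.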

Additional observations from a re-analysis of the deposited data

Results flagged for a closer look

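Each value here is a difference of the BCAA effect between the lines (769-P minus CAKI-1, log2 scale) that passed the interaction test of limma over 19406 genes at an adjusted p of 0.05. For the members it was 1.59 for SNAI1, -2.54 for SNAI2 and -1.80 for ZEB2, and these calls remained in all 8 fits that leave out 1 library.

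Among the partners, cofactors and enzymes, the difference was 1.54 for ID3, 0.997 for ID2, -1.24 for AJUBA and -0.30 for EZH2. It was 0.72 for PAK1, -0.41 for CSNK1A1, -0.58 for LATS2, -0.33 for FBXO45 and -0.47 for USP37. In TGF-beta signalling and the other EMT factors it was 1.34 for TGFBR3, 0.89 for TGFBR2, 0.85 for HMGA2, -0.92 for TGFB2, -0.99 for ETS1 and 0.66 for SOX4. Among epithelial genes it was -1.54 for PKP2, -0.49 for CLDN1, 0.50 for PEBP1 and 1.01 for VDR. Among mesenchymal genes it was -3.34 for TNC, 0.98 for S100A4, 0.61 for VIM and 0.89 for FN1.

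The calls of CLDN1, EZH2, FBXO45, TGFBR3, TNC and USP37 were lost in at least 1 of the fits that leave out a library. Those of TNC, FBXO45, CLDN1 and TGFB2 were lost under at least 1 other setting. TGFB2 was near the floor in 769-P, with between 11 and 14 reads per library. Groups of 2 libraries are too small for a check of single outlying samples.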

How the results depend on the processing

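SNAI1 remained called higher in 769-P and CAKI-1 under all 12 settings that keep every library and the threshold (2.49 to 2.76 in 769-P and 1.07 to 1.14 in CAKI-1), and SNAI2 remained called lower in both lines (-3.08 to -2.82 and -0.50 to -0.42). ZEB2 in 769-P ranged from -1.86 to -1.81. The interaction of SNAI1 stayed between 1.41 and 1.67. ZEB1 in 769-P, near 0, turned positive with median centering (0.040), edgeR (0.021), edgeR without a filter (0.027) and DESeq2 (0.0027), never called. Requiring also a fold change of at least 2 left 0 members lower in CAKI-1, where SNAI2 was 1.38-fold lower.

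With 1 library left out, SNAI1 ranged from 2.44 to 2.93 in 769-P and 0.95 to 1.24 in CAKI-1, with the call lost in all fits, and SNAI2 in CAKI-1 from -0.54 to -0.39, also lost. ZEB1 in 769-P ranged from -0.087 to 0.086 and SNAI3 there from -1.12 to 0.48. The number of members called higher was then 0 in every fit of both lines, and the number lower 0 in every fit of CAKI-1. In 769-P such fits called between 1831 and 2985 genes, and the list calls lost there stand beside their values. TWIST1 relative to SNAI1 ranged from -1.09 to -0.73. Such fits hold 3 libraries, and the p-values say little about stability at that size.

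Libraries with the same replicate number showed no shared deviation over genes (correlation -0.04 in 769-P and 0.03 in CAKI-1). The labels do not state whether such libraries were prepared together, and the correlation cannot decide it. With a replicate block the log2 fold change of SNAI1 was 2.68 in 769-P (limma, adjusted p = 1.5e-15) and 1.10 in CAKI-1 (adjusted p = 0.00018), and no call of a member changed. The block leaves little spread to measure within a gene, so these p-values rest mainly on the spread pooled over genes. They are no measure of how stable the effect of SNAI1 is. Among list genes the call of TCF3 in CAKI-1 and the difference of FBXO45 were lost with the block. Levels per longest transcript moved for ZEB2, ZEB1, SNAI2 and TWIST1. SNAI3 (at most 32 reads), TWIST2 (at most 4) and CDH1 (at most 19) were limited by depth. The alternative scalings shifted the median over tested genes by 0.041 or less.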
